A study of Mus musculus with 18 samples.

Results

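Hspb1, Hspb8, Cryab and Bag3 encode 3 small heat shock proteins and the co-chaperone that works with them. They are 4 of the 18193 genes named on the arrays, and every probe set annotated to 1 of these symbols alone was taken, which gave 9 probe sets. Hspb1 had 2 of them, Hspb8 and Cryab 3 each and Bag3 1. Each gene is described by its brightest probe set unless another is named, and the others are given beside it.

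The series holds 18 mouse samples, 3 in each of 6 groups. From both wildtype and SOD1 mutant mice came ventral spinal cord tissue and 2 populations of motor neurons, spinal ones and those of the brainstem's facial nucleus, which drives the muscles of the face. RNA of all samples, tissue included, went through a T7-based linear amplification before it was put on Affymetrix arrays, 1 array per sample. The SOD1 allele, the strain, the sex, the way the motor neurons were collected and the animal behind each sample are not given in the sources used here, and the D60 that opens the sample codes is not explained there. The p-values therefore rest on a spread between samples that may be partly technical, not on a known number of animals.

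Small heat shock proteins bind partly unfolded proteins and keep them from clumping without using ATP. BAG3 binds HSP70 through its BAG domain and HSPB8 through separate short motifs. With the ubiquitin ligase CHIP, the product of Stub1, and the receptor p62, the product of Sqstm1, this complex passes misfolded clients to autophagy, a route called chaperone-assisted selective autophagy. HSPB1 also protects actin filaments and blocks cell death, and mutations of HSPB1 or HSPB8 cause inherited motor neuropathies in humans. Alpha-B crystallin, the product of Cryab, is a lens protein that is also abundant in oligodendrocytes and astrocytes. Mutant SOD1, a cause of amyotrophic lateral sclerosis, misfolds and is a known client of these chaperones.

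Transcription of many of these genes is switched on by the heat shock factor HSF1, which binds inverted repeats of the letters GAA and TTC. The sequence before a gene's start is shown for Hspb1, the member with the most such repeats in the window examined. RefSeq windows of 250 bases before to 50 bases after the start (build GRCm38.p6) were found for 3 of the 4 members, Hspb1, Hspb8 and Bag3. They were searched for GAANNTTC and TTCNNGAA, each of which reads the same on both strands. In the 250 bases before the Hspb1 start (chr5:135887669-135887918, plus strand), 5′ to 3′, capitals mark the 2 matches to GAANNTTC, which begin 117 and 97 bases before the start.
Hspb1: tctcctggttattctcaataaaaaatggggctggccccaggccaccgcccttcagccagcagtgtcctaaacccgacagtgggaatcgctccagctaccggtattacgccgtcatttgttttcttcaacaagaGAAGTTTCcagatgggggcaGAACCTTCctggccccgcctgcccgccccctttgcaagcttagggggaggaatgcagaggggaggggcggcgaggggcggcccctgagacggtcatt
The Hspb8 match lies just after the start (minus strand, chr5:116422844-116422873, first motif base at +3) and the Bag3 match further in (plus strand, chr7:128523603-128523632, first motif base at +43). These 30-base stretches are shown because they hold the same 8 letters as the first Hspb1 match.
Hspb8: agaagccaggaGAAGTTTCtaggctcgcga
Bag3: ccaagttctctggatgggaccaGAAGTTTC
TTCNNGAA was not found in the 3 windows. Over all 32851 windows of this length, 7.86% held GAANNTTC, 8.52% held TTCNNGAA and 15.1% held either. The exact letters GAAGTTTC, or their reverse complement, were in 1.21% of windows, a search added after the shared letters were seen. A match of letters is a description and does not show a binding site.

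Levels below are log2(intensity + 16) after quantile normalization over the 18 arrays, and a value under 8.79, the 40th percentile of all genes, is close to background. Sod1 checked the labels: it lay between 16.02 and 16.57 on the wildtype arrays and between 16.40 and 16.87 on the mutant arrays, with no overlap within a kind of sample. The motor neuron markers Isl1 and Mnx1 were at 13.27 ± 0.84 (SD, n = 3) and 12.25 ± 0.53 in wildtype spinal motor neurons. In wildtype tissue they were at 8.87 ± 0.30 and 7.82 ± 0.21. Of 6 tested motor neuron markers, 5 were higher in wildtype spinal motor neurons than in tissue, beside 58.0% of all genes tested. That count holds Mnx1, which was under 8.79 on every wildtype tissue array. Mnx1 was tested only because its motor neuron arrays were high, so its positive sign is no support. Slc5a7 went the other way, at 9.67 ± 1.17 against 10.08 ± 0.30 in tissue. In wildtype facial motor neurons Isl1 was at 15.24 ± 0.13, while Mnx1 was at 5.17 ± 0.74, close to background. Oligodendrocyte genes were measured on the motor neuron arrays too. Mbp, the myelin basic protein gene, stood at 16.70 ± 0.19 in wildtype spinal motor neurons against 17.52 ± 0.03 in tissue. Mbp fell least of the 13 tested oligodendrocyte markers, whose median difference was -2.83. All 13 were lower there than in tissue (adjusted p under 0.05 in limma), beside 2524 of 10916 genes tested. The ratio of 3′ to 5′ signal of the actin control probe sets, a measure of how far the amplified RNA reaches towards its 5′ end, was 1.56 to 1.78 on tissue arrays and 25.3 to 74.4 on motor neuron arrays. Some libraries stood apart. Wildtype tissue replicate 3 had summed skeletal muscle markers of 64226 intensity units against 1667 to 2973 on the other tissue arrays. Wildtype facial replicates 2 and 3 had summed endothelial and mural markers of 44680 and 31880 against 9588 in replicate 1.

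By their brightest probe sets, Hspb1, Hspb8 and Bag3 were far brighter in motor neurons than in ventral cord tissue, whereas Cryab was about equally bright in both. Other probe sets of Hspb8 and Cryab disagreed and are given with those genes. In wildtype samples 3 of the 4 genes were called higher (adjusted p under 0.05, limma with Benjamini-Hochberg adjustment) in spinal motor neurons than in tissue, and the same 3 in facial motor neurons. Calls of either direction covered 58.7% of the 10916 genes tested in the spinal comparison and 68.3% in the facial one, with 3880 and 4510 genes called higher. The median difference of the 4 genes was 2.32 and 2.25, against 0.22 over all genes tested in either comparison. For every gene the brightest probe set was picked over all arrays, most of them of motor neurons. That choice favours probe sets bright in motor neurons, so these calls and medians can lean on it. Bag3 had no other probe set, and both Hspb1 probe sets rose. The Hspb8 result depends on the choice: 1417014_at measured -1.74 and -1.83, and 1456434_x_at 1.34 and -0.38. Cryab on 1416455_a_at measured -2.98 and -3.06. Both comparisons use the same 3 tissue arrays, which are of ventral cord. No brainstem tissue was sampled, so in the facial comparison region and cell type cannot be told apart. The actin ratio was 1.59 to 1.70 in wildtype tissue, 40.9 to 56.9 in spinal and 59.7 to 74.4 in facial motor neurons. In both comparisons, how far the amplified RNA reaches and cell type therefore cannot be told apart. In bulk samples, fewer cells of a type and less RNA per cell cannot be told apart.

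**Figure D1:**
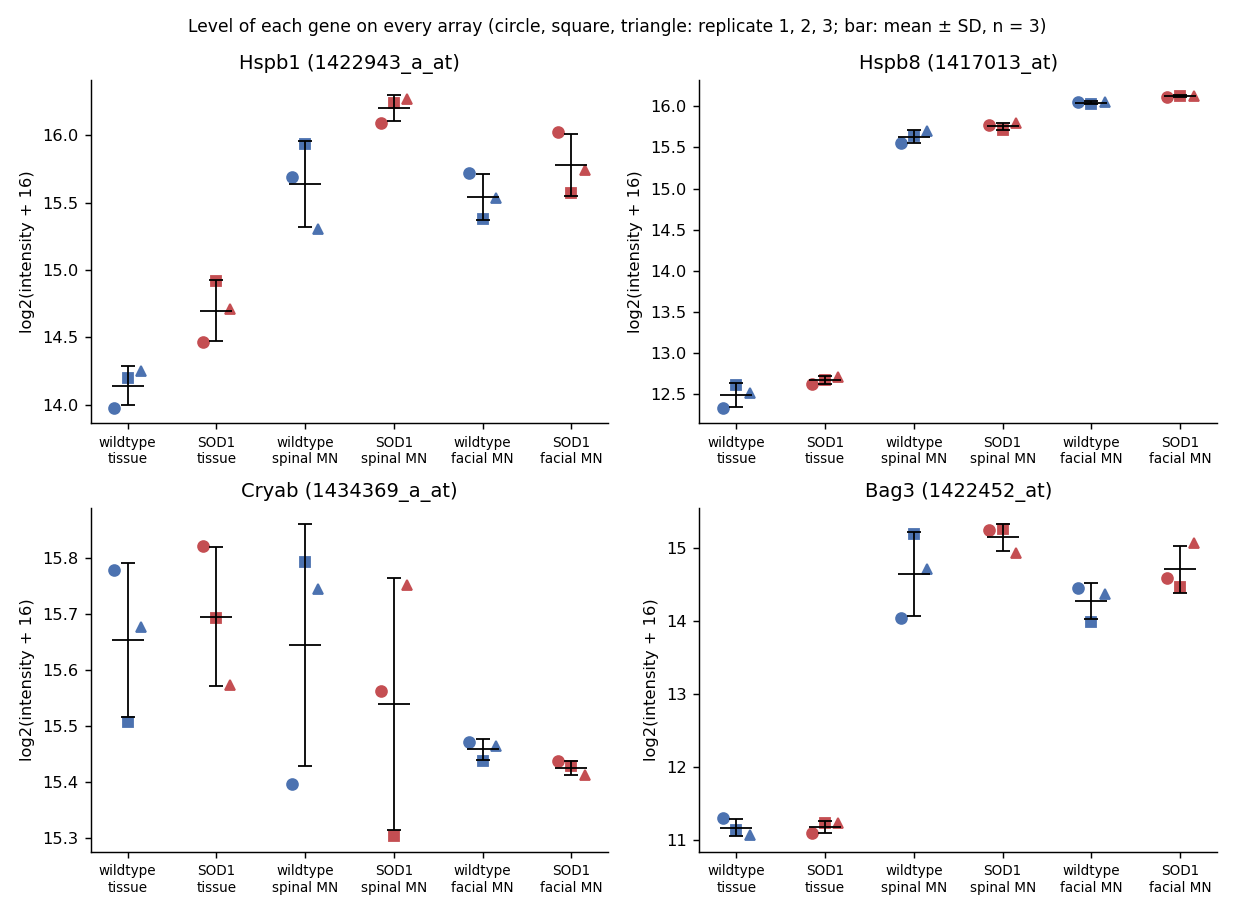
Level of each gene by its brightest probe set on every array, as log2(intensity + 16) after quantile normalization; the axes do not start at 0 and differ between panels. Points are arrays (blue wildtype, red SOD1 mutant) and bars show the mean ± SD of 3 arrays. Hspb1, Hspb8 and Bag3 lie higher on every motor neuron array than on any tissue array, and Hspb1 lies higher in mutant than in wildtype tissue.

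Hspb1 measured 13.98, 14.20 and 14.25 in wildtype tissue and 14.47, 14.92 and 14.71 in mutant tissue. Spinal motor neurons measured 15.69, 15.93 and 15.30 in wildtype and 16.09, 16.24 and 16.27 in mutant samples. In facial motor neurons the values were 15.72, 15.38 and 15.53 in wildtype and 16.02, 15.57 and 15.74 in mutants. The genotypes did not overlap in tissue or in spinal motor neurons, where every mutant array was above every wildtype array, and they overlapped in facial motor neurons. Mutant spinal motor neurons held the highest mean, 16.20 ± 0.10 (SD, n = 3), and their range did not overlap that of mutant facial motor neurons, which came next at 15.78 ± 0.23. Mutant facial, wildtype spinal and wildtype facial motor neurons overlapped one another in that order, and both tissue groups lay below. In wildtype samples Hspb1 was 2.83-fold higher in spinal motor neurons than in tissue (log2 difference 1.50, SE 0.17, limma adjusted p = 0.000129). It was 2.64-fold higher in facial motor neurons (log2 difference 1.40, SE 0.11, limma adjusted p = 1.39e-05). The second probe set, 1425964_x_at, whose suffix marks possible cross-hybridization, gave 1.78 and 1.69 for the same differences.

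Hspb8 on probe set 1417013_at had groups with SDs of 0.01 to 0.14. It measured 12.34, 12.62 and 12.52 in wildtype tissue and 12.62, 12.68 and 12.72 in mutant tissue. The spinal motor neuron values were 15.56, 15.63 and 15.70 in wildtype and 15.77, 15.71 and 15.79 in mutants. Facial motor neurons reached 16.06, 16.03 and 16.05 in wildtype and 16.11, 16.13 and 16.12 in mutants. On the normalized scale no 2 neighbouring groups overlapped, with the order facial, spinal, tissue and, within each, mutant above wildtype. On the deposited linear scale the genotypes overlapped in all 3 kinds of sample. Wildtype tissue arrays spanned 5685 to 6636 intensity units and mutant ones 6617 to 6949, wildtype spinal arrays 51994 to 63003 and mutant ones 55008 to 62778, and wildtype facial arrays 77472 to 86638 and mutant ones 73368 to 88104. In wildtype samples Hspb8 was 8.82-fold higher in spinal motor neurons than in tissue (log2 difference 3.14, SE 0.14, limma adjusted p = 2.07e-06) and 11.7-fold higher in facial motor neurons (log2 difference 3.55, SE 0.09, limma adjusted p = 1.84e-07).

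The other Hspb8 probe sets disagreed with that rise in part. Probe set 1417014_at measured 11.64, 12.09 and 11.89 in wildtype tissue against 9.78, 9.96 and 10.65 in wildtype spinal motor neurons, so that the motor neurons were the lower group. In wildtype facial motor neurons it measured 9.83, 10.06 and 10.25. Its log2 difference from tissue was -1.74 (SE 0.28, limma adjusted p = 0.00103) in spinal and -1.83 (SE 0.19, limma adjusted p = 9.48e-05) in facial motor neurons. Probe set 1456434_x_at gave 1.34 (SE 0.42, limma adjusted p = 0.0258) and -0.38 (SE 0.53, limma adjusted p = 0.56), with groups that spread over more than 1 log2 unit in tissue. Where each probe set lies on the Hspb8 transcript is not known here, and the part of the 3′ to 5′ ratio in this disagreement was not tested.

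Cryab was level across the groups on probe set 1434369_a_at, the brightest by its mean over the 18 arrays but not the brightest in tissue. It measured 15.78, 15.51 and 15.68 in wildtype tissue and 15.82, 15.69 and 15.57 in mutant tissue. The spinal motor neuron values were 15.40, 15.79 and 15.74 in wildtype and 15.56, 15.30 and 15.75 in mutants, and in facial motor neurons 15.47, 15.44 and 15.46 against 15.44, 15.43 and 15.41. Neighbouring groups in the order of means overlapped except at the bottom, where mutant facial arrays lay just under wildtype ones. Wildtype spinal motor neurons and tissue differed by -0.01 (SE 0.14, 95% interval -0.32 to 0.30, limma adjusted p = 0.959) and facial motor neurons and tissue by -0.20 (SE 0.08, limma adjusted p = 0.0506). The facial difference is close to the threshold. It was called lower in 5 of 18 alternatives, with limma adjusted p-values of 0.0499 with a pseudocount of 64, 0.0451 with the filter at the 60th percentile, 0.0134 with array weights, 0.049997 with quantile normalization over the arrays of the comparison and 0.0132 without wildtype tissue replicate 2 (-0.27). The level also depends on the scaling. When the arrays were only brought to one median, without quantile normalization, Cryab was called higher in motor neurons, by 1.39 (limma adjusted p = 3.29e-05) in spinal and 1.25 (limma adjusted p = 7.13e-06) in facial. That scaling moved the median of all genes up by 0.47 and 0.55 in these comparisons. Relative to it Hspb1 also measured more, 2.72 and 2.66, and its direction held, as did those of Hspb8 at 4.07 and 4.55 and Bag3 at 4.05 and 3.68. The other bright probe set of Cryab, 1416455_a_at, was far lower in motor neurons, at 12.29, 13.64 and 13.61 in wildtype spinal samples against 15.93, 16.24 and 16.32 in wildtype tissue. In tissue it averaged 16.16 ± 0.20 (wildtype) and 16.10 ± 0.11 (mutant), above 1434369_a_at at 15.65 ± 0.14 and 15.70 ± 0.12. The log2 difference of 1416455_a_at was -2.98 (SE 0.34, limma adjusted p = 0.000173) in spinal and -3.06 (SE 0.19, limma adjusted p = 6.98e-06) in facial motor neurons. The third, 1435837_at, was close to background on 17 of 18 arrays. Summed oligodendrocyte markers were 873260 to 938775 intensity units in wildtype tissue, 205341 to 293179 in wildtype spinal and 185640 to 260558 in wildtype facial motor neurons, and their part in either Cryab signal was not tested.

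Such disagreement is common on these arrays. Of 5460 genes with at least 2 tested probe sets in the spinal comparison, 15.4% had probe sets called in both directions, and 21.3% of 5468 in the facial one. The gap between the extreme probe sets was 2.97 and 2.87 for Cryab, a size reached by 15.3% and 16.6% of those genes. For Hspb8 it was 4.89 and 5.38, reached by 2.88% and 2.03%. Hspb1 differed between its probe sets by 0.29 in each comparison.

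**Figure D2:**
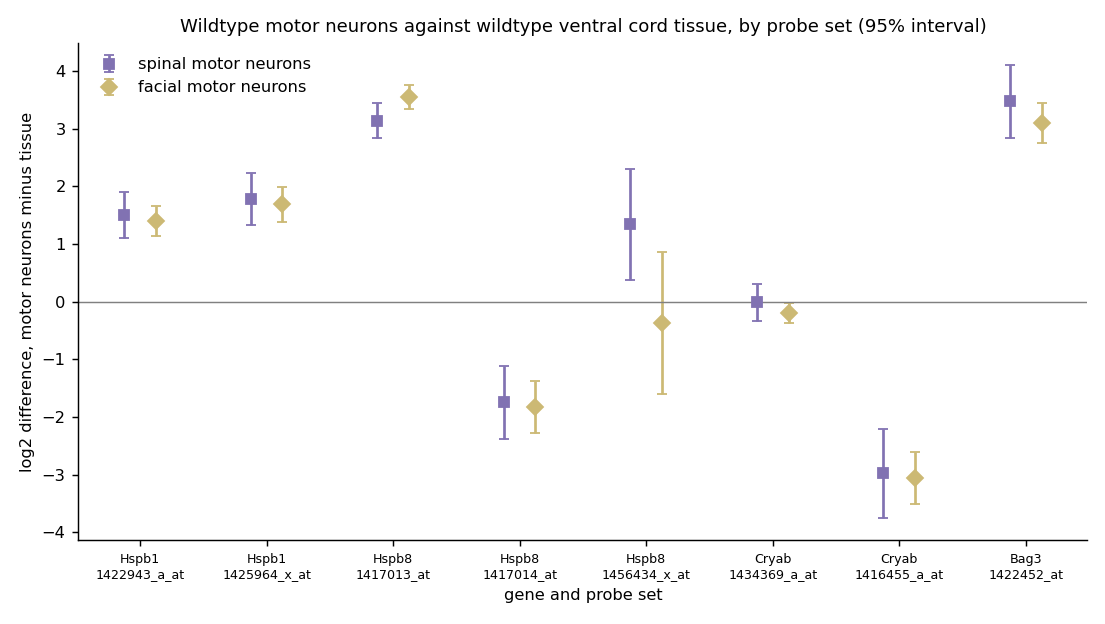
Log2 difference of wildtype motor neurons minus wildtype tissue for each tested probe set of the 4 genes, with the 95% interval from limma (3 arrays per group). The probe sets of Hspb1 lie side by side above 0, those of Hspb8 run from 3.14 to -1.74 in spinal motor neurons, and those of Cryab lie near 0 and near -3.

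Bag3 had a single probe set and, with Hspb8, the larger rise in motor neurons among the 4 genes. It measured 11.30, 11.13 and 11.07 in wildtype tissue and 11.09, 11.22 and 11.23 in mutant tissue. Spinal motor neurons measured 14.03, 15.18 and 14.71 in wildtype and 15.24, 15.26 and 14.93 in mutants, and in facial motor neurons 14.45, 13.99 and 14.36 in wildtype and 14.58, 14.46 and 15.07 in mutants. The motor neuron groups overlapped their neighbours in the order of means and stood clear of both tissue groups, which overlapped each other. Wildtype spinal motor neurons were 11.1-fold above tissue (log2 difference 3.47, SE 0.27, limma adjusted p = 1.91e-05). Facial motor neurons were 8.56-fold above it (log2 difference 3.10, SE 0.15, limma adjusted p = 1.26e-06). Wildtype spinal replicate 1 was the lowest of the motor neuron arrays but for one facial array at 13.99, and it also had the highest actin ratio of the spinal arrays, 56.9. Without it the spinal difference was 3.78. Once the actin ratio entered the fit, none of the 4 genes was called in either comparison, but that ratio separates tissue from motor neurons without overlap and the estimates became imprecise. In spinal motor neurons they were 1.46 (SE 2.68) for Hspb1, 4.68 (SE 1.97) for Hspb8 and 12.4 (SE 2.77, limma adjusted p = 0.0618) for Bag3. In facial ones they were 0.63 (SE 3.30), 4.78 (SE 2.79) and 1.96 (SE 4.44), in the same order.

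Between the motor neuron sites of wildtype mice, 1 of the 4 genes was called. Hspb8 was 1.33-fold lower in spinal than in facial motor neurons (log2 difference -0.41, SE 0.10, limma adjusted p = 0.0477), in a comparison that called 3.96% of genes. The call is close to the threshold and was lost in 12 of 19 alternatives. Among these were 5 of the 6 in which 1 array was left out. The sign was kept in all 19, but it is that of the brightest Hspb8 probe set. The other probe sets had the opposite sign in wildtype samples. Probe set 1456434_x_at averaged 11.57 in spinal and 9.85 in facial motor neurons, with ranges of 11.07 to 12.02 and 8.85 to 10.56. Probe set 1417014_at averaged 10.13 in spinal and 10.05 in facial motor neurons, with overlapping ranges. Bag3 differed by 0.37 (95% interval -0.22 to 0.97), Cryab by 0.19 (-0.10 to 0.47) and Hspb1 by 0.10 (-0.28 to 0.47), none of them called.

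Whether the mutant changes these genes was asked in each kind of sample. None of the 4 was called by genotype in any of the 3 kinds of sample. In tissue, spinal and facial motor neurons, in that order, 0.641%, 0.0641% and 0% of genes were called. At an unadjusted p under 0.05 the 3 comparisons held 1083, 1037 and 1949 genes. In each of them 1 member had an unadjusted p under 0.05: Hspb1 in tissue and in spinal motor neurons, and Bag3 in facial motor neurons. The median difference of the 4 genes was 0.11, 0.31 and 0.16, beside -0.01, 0.01 and 0.02 over all genes tested.

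Hspb1 had a near-identical difference in tissue and in spinal motor neurons. In mutant tissue it was 1.47-fold above wildtype (log2 difference 0.56, SE 0.12, 95% interval 0.29 to 0.82, limma adjusted p = 0.0978). In spinal motor neurons it was also 1.47-fold above wildtype (log2 difference 0.56, SE 0.16, 95% interval 0.22 to 0.90, limma adjusted p = 0.372). In facial motor neurons the difference was 0.24 (SE 0.13, 95% interval -0.06 to 0.53, limma adjusted p = 0.369). The second probe set gave 0.61, 0.73 and 0.36, again with every mutant array above every wildtype array in tissue and spinal motor neurons. The tissue difference passed the threshold without mutant tissue replicate 1 (0.67, limma adjusted p = 0.0194) and the spinal one without wildtype spinal replicate 2 (0.71, limma adjusted p = 0.0147). Without the wildtype tissue array rich in muscle RNA, the tissue difference was 0.61 (limma adjusted p = 0.161). The lowest values with 1 array left out were 0.45 in tissue, without mutant replicate 2 (limma adjusted p = 0.277), and 0.39 in spinal motor neurons, without wildtype replicate 3 (limma adjusted p = 0.803). With arrays only brought to one median the differences were 0.42 (limma adjusted p = 0.0877) and 0.35 (limma adjusted p = 0.526).

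Glial genes moved alongside. The summed microglia markers were 75827 to 81789 intensity units in wildtype and 118222 to 134672 in mutant tissue, with 7 of 13 tested markers called higher. In spinal motor neurons they were 12576 to 33045 and 70996 to 92272, with 2 of 11 called. The summed reactive astrocyte genes were 50552 to 54249 against 87346 to 92995 in tissue and 14300 to 19032 against 34803 to 42841 in spinal motor neurons. The genotypes overlapped among facial samples, at 15869 to 33357 and 22311 to 26071 for microglia and 15261 to 16335 and 13413 to 18919 for reactive astrocyte genes. The part of these cells in the Hspb1 difference was not tested. The actin ratio moved with genotype too in motor neurons, at 40.9 to 56.9 in wildtype and 25.3 to 39.1 in mutant spinal samples and 59.7 to 74.4 and 26.6 to 59.0 in facial ones. With the ratio as a covariate Hspb1 differed by 0.57 in tissue and by 0.48 and 0.09 in spinal and facial motor neurons.

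Bag3 in tissue showed a genotype difference of 0.01 (SE 0.12, 95% interval -0.25 to 0.27). In motor neurons it measured 0.50 in spinal (SE 0.25, 95% interval -0.04 to 1.05, limma adjusted p = 0.541) and 0.44 in facial samples (SE 0.18, 95% interval 0.03 to 0.84, limma adjusted p = 0.256). Without wildtype spinal replicate 1 the spinal difference was 0.20, and without replicate 2 it was 0.77 (limma adjusted p = 0.0423). With the actin ratio as a covariate the differences were 0.15 and 0.08.

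Hspb8 differed by 0.18 (SE 0.10) in tissue, 0.13 (SE 0.11) in spinal and 0.08 (SE 0.07) in facial motor neurons, none called, and the spinal difference became -0.09 with arrays only brought to one median. Its other probe sets did not all share that direction. In tissue, spinal and facial samples the mutant means of 1417014_at were 11.98, 9.98 and 10.55, against 11.87, 10.13 and 10.05 in wildtype. Those of 1456434_x_at were 9.66, 11.36 and 10.79, against 10.23, 11.57 and 9.85. Cryab differed by 0.04 (95% interval -0.15 to 0.23), -0.11 (-0.45 to 0.24) and -0.03 (-0.21 to 0.15). Its probe set 1416455_a_at measured -0.06, 0.40 and 0.60 in the same 3 comparisons, with all mutant facial arrays above all wildtype ones (limma adjusted p = 0.22). Counted by the arrays alone, on the normalized scale, all mutant arrays lay above all wildtype arrays for Hspb1 and Hspb8 in tissue and in spinal motor neurons, and for Hspb8 and Bag3 in facial motor neurons. That order held for 7.06%, 6.92% and 13.0% of all genes tested. On the deposited linear scale the genotypes overlapped for Bag3 in facial motor neurons, at 17032 to 24936 intensity units in wildtype and 24470 to 36673 in mutants.

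**Figure D3:**
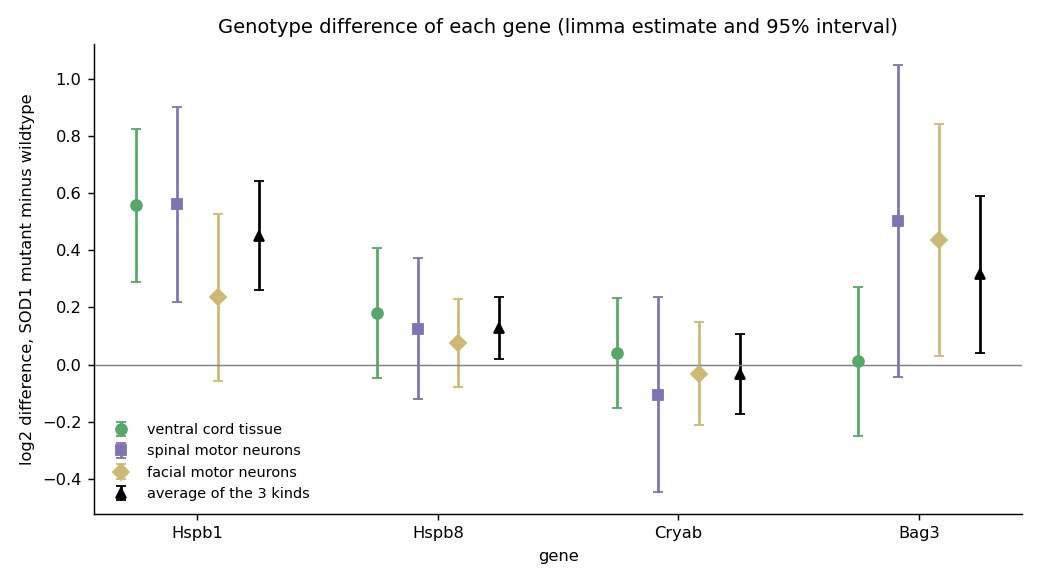
Log2 difference of SOD1 mutant minus wildtype for each gene in each kind of sample, with the 95% interval from limma (3 arrays per group), and averaged over the kinds (black, 9 arrays per genotype). The Hspb1 intervals lie above 0 in tissue and spinal motor neurons, and those of Hspb8 and Cryab in single kinds of sample include 0.

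A single genotype effect over all 18 arrays, with the kind of sample as a term, was fitted after the results above were seen. That fit gave each gene a single spread over all kinds of sample. It also took the arrays as independent, although whether the kinds share animals is not known. It called 1 of the 4 genes and 0.815% of all genes. Hspb1 was 1.37-fold higher in mutants (log2 difference 0.45, SE 0.09, limma adjusted p = 0.0201), and its second probe set gave 0.57 (limma adjusted p = 0.0272). Without mutant spinal replicate 3 the adjusted p in limma was 0.0526, and with arrays only brought to one median the difference was 0.31 (limma adjusted p = 0.118). Bag3 measured 0.32 (95% interval 0.04 to 0.59, limma adjusted p = 0.258), Hspb8 0.13 (0.02 to 0.24, limma adjusted p = 0.241) and Cryab -0.03 (-0.17 to 0.11), none called.

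The genotype effect was compared between kinds of sample as an interaction. None of the 4 genes was called in the spinal against tissue, facial against tissue or spinal against facial comparison, where 0.0550%, 0.0458% and 0% of genes were called and 966, 1755 and 987 genes had an unadjusted p under 0.05. The Hspb1 effect differed by 0.00 between spinal motor neurons and tissue, with a 95% interval of -0.47 to 0.47, an interval about as wide as the effect itself on either side. Between facial motor neurons and tissue it differed by -0.32 (-0.75 to 0.11), and between spinal and facial motor neurons by 0.32 (-0.14 to 0.79). For Bag3 the effect was larger in spinal motor neurons than in tissue by 0.49 (-0.19 to 1.17) and in facial motor neurons by 0.42 (-0.08 to 0.93). These intervals are too wide to tell a motor neuron effect on Bag3 from none. The Hspb8 and Cryab effects differed by at most 0.15 in size between kinds of sample.

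The other genes of the family and of the BAG co-chaperones came next. Of 8 other small heat shock genes on the arrays, 5 in every group were under 8.79 on all its arrays, and none of the 2 or 3 tested was called by genotype. In motor neurons Hspb11 was higher than in wildtype tissue, by 2.20 (limma adjusted p = 0.000176) in spinal and 2.53 (limma adjusted p = 3.79e-06) in facial samples. Despite its name its product is a subunit of the intraflagellar transport machinery. Hspb6, a small heat shock protein of muscle and brain, was higher than in tissue in facial motor neurons (1.66, limma adjusted p = 5.91e-05), while in spinal ones it measured 0.01, and the difference between the motor neuron sites was itself called (-1.65, limma adjusted p = 0.00749). Of the other 5 BAG genes, none was called by genotype. Bag4 was higher in spinal and facial motor neurons than in tissue, by 1.29 and 1.61, and Bag6 was lower by 1.13 and 0.86 on the log2 scale (differences of -1.13 and -0.86). Bag1 was lower in facial motor neurons (-0.23, limma adjusted p = 0.0262).

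Most of the tested HSP70 and other heat shock response genes were called higher in motor neurons, in comparisons that called 58.7% (spinal) and 68.3% (facial) of all genes in either direction. Of 14 tested, 10 were called higher and 1 lower in spinal motor neurons than in wildtype tissue, and 10 higher and 2 lower in facial ones, beside 3880 and 4510 of 10916 genes called higher. Their medians were 0.63 and 0.45, against 0.22 over all genes. Hspa1a, which encodes the inducible HSP70, was higher by 1.96 and 2.28, and Chordc1, an HSP90 co-chaperone, by 1.52 and 1.39. Dnajb1, an HSP40 partner of HSP70, was higher by 1.15 and 0.64. Stip1, which links HSP70 to HSP90, was lower, at -0.94 and -1.09. Hspd1, the mitochondrial chaperonin, was the other gene called lower in facial motor neurons (-0.29), was called higher in spinal ones (0.77) and differed between the sites (1.07, limma adjusted p = 0.0193). By genotype, 1 of the 14 was called: Hspa1a in tissue (1.29, SE 0.20, limma adjusted p = 0.0222). It measured 0.62 in spinal and 0.03 in facial motor neurons. Its close copy Hspa1b measured 1.0, 1.15 and 1.11 in the 3 kinds and was called in the effect over all 18 arrays (1.09, limma adjusted p = 0.00264). Probes of these near-identical genes may share signal, so which copy a value belongs to is uncertain.

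**Figure D4:**
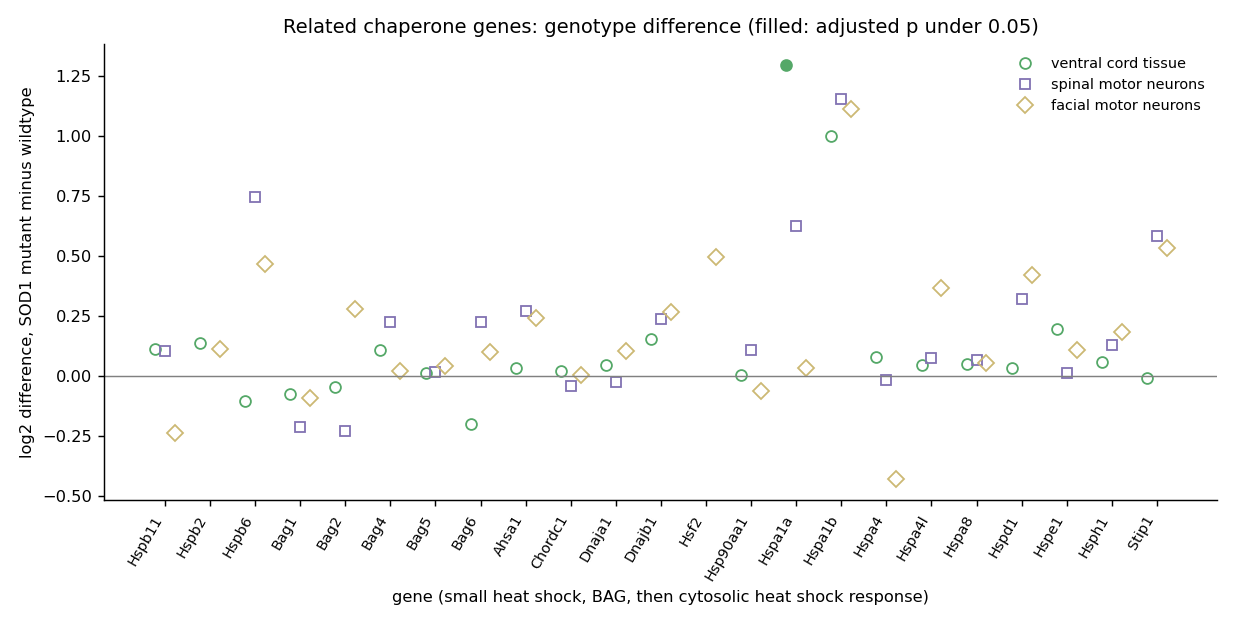
Log2 difference of SOD1 mutant minus wildtype in each kind of sample for the tested small heat shock, BAG and heat shock response genes outside the 4 described. Each point is a limma estimate from 3 arrays per genotype, and only Hspa1a in tissue passed the threshold (filled).

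Genes of the route that BAG3 and HSPB8 feed were mixed. Of 14 tested autophagy and aggresome genes, 4 were called higher and 5 lower in spinal motor neurons than in wildtype tissue, and 3 higher and 8 lower in facial ones. Over all 10916 genes tested, 3880 were called higher and 2524 lower in the spinal comparison, and 4510 and 2941 in the facial one. These calls covered 58.7% and 68.3% of genes. The medians of the 14 genes were -0.35 and -0.40, against 0.22 over all genes in either comparison. Sqstm1, the gene of the receptor p62, was lower by 2.40 and 2.06 on the log2 scale (differences of -2.40 and -2.06). Map1lc3b, which encodes a protein of the autophagosome membrane, was higher by 0.89 and 0.70. Ubqln2, a ubiquitin-binding shuttle factor, measured -0.81 and -1.0. Stub1, the gene of CHIP, named here for its part in the complex after its value was seen, measured -0.59 and -0.43, both called. None of the 14 was called by genotype in any kind of sample. Sqstm1 measured -0.05 in tissue and 0.50 and 0.35 in spinal and facial motor neurons.

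HSPB1 is a known part of the response of neurons to axon injury, and genes of that response were mixed too. Of 7 tested, 3 were called higher and 2 lower in spinal motor neurons than in tissue, and 4 higher and 3 lower in facial ones. These comparisons called 58.7% and 68.3% of all genes in either direction. Jun was higher by 1.76 and 1.46 and Sox11, a transcription factor of growing neurons, by 1.65 and 2.42. Gap43, a growth cone protein, was lower, at -3.92 and -2.32. None was called by genotype. In spinal motor neurons 7 of 8 tested genes had a positive difference, beside 51.5% of all genes, with a median of 0.86 beside 0.01. Both figures count Atf3 and Sprr1a, which were under 8.79 on every wildtype spinal array. They were tested only because their mutant arrays were high, so their positive sign is no support. The summed level of the 9 genes, Atf3 and Sprr1a included, was 16621 to 28146 intensity units in wildtype and 31707 to 41663 in mutant spinal motor neurons. Atf3, a transcription factor induced by axon injury, was at 7.43 ± 2.04 (SD, n = 3) in wildtype spinal motor neurons, close to background, and at 11.55 ± 0.71 in mutants (log2 difference 4.12, limma adjusted p = 0.169). Gap43 differed by 1.63 (limma adjusted p = 0.139) and Sprr1a, a gene of regrowing axons, by 3.01 (limma adjusted p = 0.274). In facial motor neurons the sums overlapped, at 39810 to 40739 and 37754 to 42813. The part of this response in the Hspb1 difference was not tested.

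Over the 18 arrays, the genes most like Hspb1, Hspb8 and Bag3 mainly shared the step between tissue and motor neurons. Cryab had no clear step on its brightest probe set. Correlations are descriptions here. Among 10915 other genes the closest to Hspb8 was Mtmr4 (Pearson r = 0.995), to Bag3 Gpat3 (r = 0.994), to Hspb1 Atad3a (r = 0.962) and to Cryab Akirin2 (r = 0.813). Between members, r was 0.965 for Hspb8 and Bag3, 0.929 for Hspb1 and Bag3 and 0.894 for Hspb1 and Hspb8, and Cryab was at -0.51 to -0.41 with the other members. With the mean of each kind of sample subtracted, which leaves genotype and array-to-array spread, these were 0.35, 0.46 and 0.65. On that scale the closest genes to Hspb1 were Serpina3n, a protease inhibitor gene raised in reactive astrocytes, at r = 0.924, Lgals3bp at 0.864 and Sod1 itself at 0.851. In wildtype samples Serpina3n was higher in spinal (12.91 ± 0.33) and facial motor neurons (12.91 ± 0.16) than in tissue (11.69 ± 0.12). Hspb8 was closest to Ncan (0.797) and Sod1 (0.792). Bag3 was closest to Reep1, an endoplasmic reticulum shaping gene, at 0.916, followed by Cep120 (0.913) and Scn8a (0.912). Cryab was closest to Dtna (0.833). All points share the same 18 arrays and the same normalization.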

How the data were processed

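The values deposited by the authors are linear intensities of 45101 probe sets on 18 arrays; how they were made from the scans is not given in the sources used here. The mean after trimming 2% at each end was 2500 on every array, and no read depth exists: 3 arrays per group limit the precision. The values were quantile normalized as log2(intensity + 16). Gene symbols came from the platform annotation: 34958 had 1 symbol, 932 several and 9211 none. A gene was represented by its brightest single-symbol probe set, and genes under the 40th percentile were left out, which left 10916 per fit. The brightest was taken by the mean over all arrays, most of them of motor neurons. In comparisons with tissue this favours probe sets bright in motor neurons. Tests used limma 3.58.1 under R 4.3.3 (mean-variance trend, Benjamini-Hochberg at 0.05), tested on simulated data; SE is from limma. Because of the added 16, folds of dim genes come out too small.

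The members and the 12 lists were chosen with earlier results of these data known. From each list, up to 4 called genes with the smallest p were eligible to be named; Stub1, Hspd1, Bag1, values of uncalled genes and the effect over all 18 arrays were chosen after seeing values. The alternatives were another scaling, pseudocounts of 1 and 64, other filters, every probe set, no trend, array weights, the actin ratio as a covariate, the replicate block, all arrays in one fit and arrays left out.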

Additional observations from a re-analysis of the deposited data

Results flagged for a closer look

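The difference between genotype effects of spinal motor neurons and tissue was past the threshold for 2 genes of the marker lists. Gfap, the filament gene of reactive astrocytes, rose more in mutant spinal motor neuron samples than in mutant tissue (interaction 1.97, limma adjusted p = 0.0189), with effects of 2.85 and 0.88. Laptm5, a lysosomal gene of microglia, did likewise (interaction 1.50, limma adjusted p = 0.0393). Neither belongs to the small heat shock proteins.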

How the results depend on the processing

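The count of the 4 genes called moved by over 1.5 times under these settings. By genotype in tissue it was 1 instead of 0 with array weights, the actin ratio as a covariate or the replicate block, and 0 to 1 with 1 array left out. In spinal motor neurons it was 1 with array weights and 0 to 2 with 1 array left out. Against tissue it was 0 instead of 3 with the actin covariate in both motor neuron comparisons. Smaller changes came with Cryab: the count was 4 at a common median in both, where Cryab was called higher, and 4 in the facial comparison in the 5 alternatives in which Cryab was called lower. Between wildtype spinal and facial motor neurons it was 0 instead of 1 at a common median, with no filter, every probe set, no trend, the actin covariate, the replicate block or both replicate 1 wildtype motor neuron arrays out, and 0 to 1 with 1 array left out. In the effect over all 18 arrays it was 0 instead of 1 at a common median, with no trend or with the actin covariate, and 0 to 1 with 1 array left out.

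Signs turned in these cases. At a common median, Cryab and Bag3 measured -0.022 and -0.049 by genotype in tissue, Hspb8 -0.094 in spinal motor neurons and -0.0037 over all arrays, Cryab 1.39 and 1.25 against tissue, the Hspb1 interaction of spinal motor neurons with tissue -0.068, and the spinal against facial interactions -0.098 (Hspb8) and -0.056 (Bag3). With array weights, Cryab measured 0.068 in wildtype spinal motor neurons against tissue, Hspb1 -0.056 between the sites and the Bag3 spinal against facial interaction -0.10. With the actin covariate, Cryab measured 3.34 in wildtype spinal motor neurons against tissue, the Hspb1 interaction with tissue -0.16, and Cryab and Bag3 -0.14 and -0.43 between the sites. With both replicate 1 wildtype motor neuron arrays out, the Bag3 spinal against facial interaction was -0.33.

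With 1 array left out, genotype differences ranged from -0.032 to 0.10 (Cryab) and -0.037 to 0.077 (Bag3) in tissue and from -0.23 to 0.013 for Cryab in spinal motor neurons. Interactions of spinal motor neurons with tissue ranged from -0.17 to 0.15 (Hspb1) and -0.12 to 0.021 (Hspb8), and spinal against facial ones from -0.20 to 0.045 (Cryab) and -0.24 to 0.34 (Bag3). Cryab in wildtype spinal motor neurons against tissue ranged from -0.083 to 0.11, Hspb1 between the sites from -0.047 to 0.27, and Cryab over all arrays from -0.062 to 0.0069. The cause of these changes was not tested.

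The replicate numbers were not taken as pairs, since correlations between same-numbered arrays were 0.02 to 0.30 and not above 0.1 in every pair. Even so, the best match was the same-numbered array in every case but tissue replicate 2 and spinal replicate 1. With the replicate block, Hspb1 in tissue had the same difference, 0.56, and a limma adjusted p of 0.00996, and Hspb8 between the sites -0.41 with 0.0872.

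Over these alternatives, leaving aside the one that tests probe sets rather than genes, the genes called ranged from 4 to 145 in tissue, 0 to 666 in spinal and 0 to 732 in facial motor neurons, 252 to 7067 (without the filter, which tests more genes) and 0 to 9209 against tissue, 4 to 3222 between the sites and 13 to 155 over all arrays. For the 3 interactions they ranged from 0 to 877, 0 to 2229 and 0 to 30. In tissue the share of calls that were higher was 78.6%, and 65.5% at a common median; against tissue it was 60.6% and 60.5%, and 78.6% and 78.5%.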
